A study of Homo sapiens with 10 samples.

Results

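The transcripts of the mitochondrial genome were examined in VCaP cells, a prostate cancer cell line, by sequencing of poly(A)-selected RNA. Every gene whose symbol begins with MT- was included, which gave 37 of the 59386 genes counted: 13 mRNAs, 2 rRNAs and 22 tRNAs. There were 10 libraries in 5 groups of 2. The cells of 4 groups had received 30 pmol of an siRNA 72 h before harvest, which was siRNA A or siRNA B where *SMARCA4* was the target and siRNA A or siRNA C where it was *SMARCA1*. *SMARCA4* and *SMARCA1* encode the ATPases of SWI/SNF and ISWI chromatin remodeling complexes. The fifth group was the control, labelled as wild type. The labels name neither an siRNA nor a dose for the control, so an effect of transfecting any siRNA and an effect of losing its target cannot be told apart in a comparison with control. All groups are the same cell line, and nothing in the labels says that the 2 libraries of a group came from separate cultures, so the p-values below measure the spread between these libraries, which may be technical.

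Mitochondrial DNA is a small circle that is transcribed in the mitochondrion by its own polymerase from both strands. Each strand gives a long precursor in which tRNAs lie between most of the mRNAs and rRNAs, and the tRNAs are cut out at both ends to free the RNAs between them. Most mitochondrial mRNAs then receive short poly(A) tails. All of them encode core subunits of the respiratory chain and of ATP synthase, and the rRNAs build the mitochondrial ribosome. Of the mRNAs only *MT-ND6* is read from the light-strand promoter, and the 12 others, both rRNAs and 14 of the tRNAs come from the heavy-strand transcript, while 8 tRNAs come from the light-strand transcript.

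The sequences below come from chromosome M of the hg38 reference, with coordinates on its forward strand, which is the sense strand of all genes shown. The 3 places where reading frames share bases are shown because a read inside them cannot be assigned to a single gene. In addition, 5 of the mRNAs that the results turn on meet there. Each protein-coding gene is counted as an mRNA here, although overlapping genes may lie on the same RNA molecule. The values of such genes are then not separate evidence. *MT-ATP8* and *MT-ATP6* share 46 bases, *MT-ATP6* and *MT-CO3* share 1 base, and *MT-ND4L* and *MT-ND4* share 7 bases. Capitals mark the start codon of the downstream frame and, in the first and the last line, the stop codon of the upstream frame.
MT-ATP8 and MT-ATP6, chrM:8527-8572: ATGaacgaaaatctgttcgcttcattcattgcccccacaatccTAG
MT-ATP6 and MT-CO3, chrM:9193-9221: cacgacaacacataATGacccaccaatca
MT-ND4L and MT-ND4, chrM:10752-10774: ctactccaATGcTAAaactaatc

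By their annotated ends, 6 of the 13 mRNAs have an incomplete stop codon that the poly(A) tail completes, and 7 encode the whole stop codon. *MT-ATP6* is among the 7 only by its annotated end. The last base of its stop codon is also the first base of the *MT-CO3* start codon. The ends of 4 mRNAs with an incomplete stop codon are shown, with the encoded part of the stop codon in capitals and the first bases of the tRNA gene that follows.
MT-ND1 and MT-TI, chrM:4251-4274: ccctcaaaccTAagaaatatgtct
MT-CO3 and MT-TG, chrM:9979-10002: gatgagggtctTactcttttagta
MT-ND3 and MT-TR, chrM:10393-10416: actgaaccgaaTtggtatatagtt
MT-CYB and MT-TT, chrM:15876-15899: tcaaatgggccTgtccttgtagta

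The libraries held between 23898545 and 34667965 counts in genes. *SMARCA4* was at 242 and 268 CPM (counts scaled to a common library total, here after TMM scaling) in control and between 13.3 and 25.2 CPM in the *SMARCA4* knockdown libraries, and *SMARCA1* was at 32.3 and 31.5 CPM in control and between 1.75 and 3.40 CPM in the *SMARCA1* knockdown libraries, so each library matched its label. All 12 markers of prostate epithelium were present in every library. The 12 markers of other cell types, of which PTPRC, CD3E, CD68, CDH5 and KRT5 were at or near 0 and COL1A1 and ACTA2 made up most of the sum, added up to 7.62 to 14.3 unscaled CPM in control and to 10.5 to 23.9 in the knockdown libraries, and their part in the results was not tested. *SMARCA1* itself was higher under *SMARCA4* knockdown (log2 fold change 1.07 ± 0.18 (adjusted p = 0.001), edgeR's quasi-likelihood test).

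Mitochondrial mRNAs took a smaller part of the counts in most knockdown libraries, and mitochondrial rRNAs a larger part in all of them. The 13 mRNAs together held 1.57% and 1.66% in control, 1.34 and 1.61 with siRNA A and 0.996 and 1.18 with siRNA B against *SMARCA4*, and 1.38 and 1.34 with siRNA A and 1.04 and 0.985 with siRNA C against *SMARCA1*, in percent of all counts. The second library of *SMARCA4* siRNA A lay between the control libraries, so only the *SMARCA1* knockdown libraries were all below control. The mean was 1.61 ± 0.0583% in control (SD, n = 2), 1.28 ± 0.262% under *SMARCA4* knockdown and 1.19 ± 0.201% under *SMARCA1* knockdown (SD, n = 4 each). In bulk RNA, less of a transcript per cell and fewer cells that carry it cannot be told apart, and the number of mitochondrial genomes per cell was not measured. The 2 rRNAs held 0.262% and 0.261% in control, 0.375 and 0.374 with siRNA A and 0.281 and 0.298 with siRNA B against *SMARCA4*, and 0.371 and 0.354 with siRNA A and 0.367 and 0.361 with siRNA C against *SMARCA1*. All 8 knockdown libraries were above both control libraries, *SMARCA4* siRNA B least so. Counting error was small beside these differences, with a 95% Clopper-Pearson half-width of at most 0.00499 percentage points for mRNAs and 0.00236 for rRNAs.

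**Figure D1:**
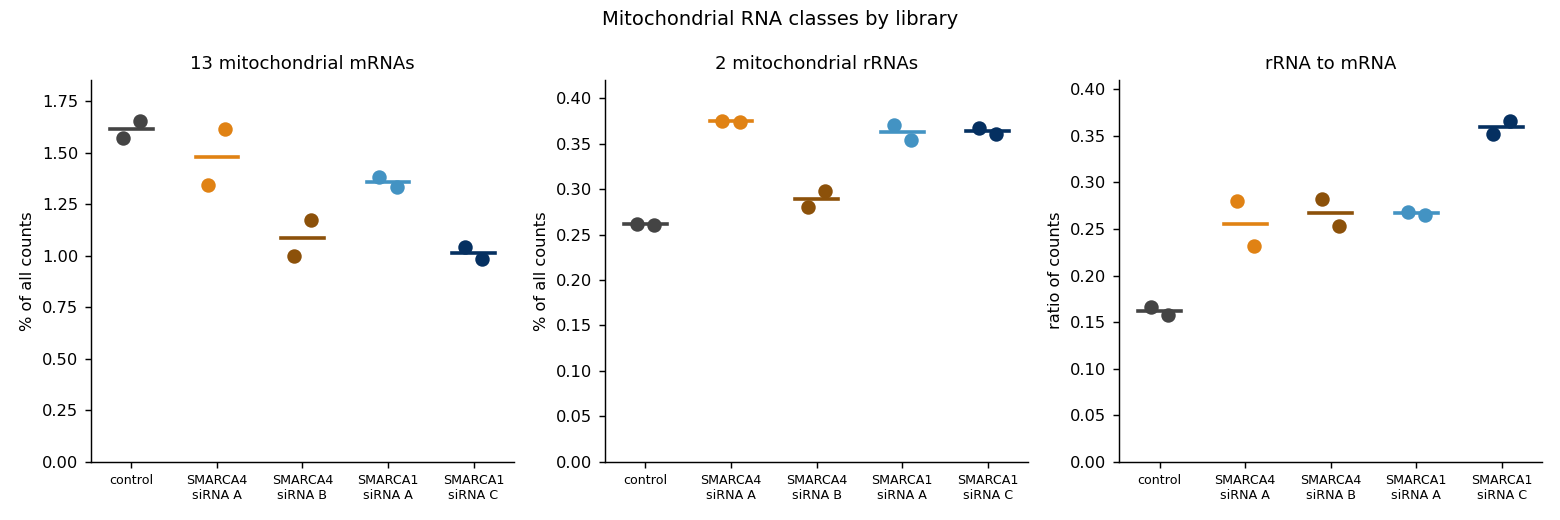
Share of all counts in the 13 mitochondrial mRNAs (left) and the 2 mitochondrial rRNAs (middle), and the ratio of rRNA to mRNA counts (right), for each of the 10 libraries; points are libraries and short lines are the mean of the 2 libraries of a group. The ratio is 0.158 and 0.166 in control and between 0.232 and 0.366 in the 8 knockdown libraries.

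The ratio of mitochondrial rRNA to mRNA counts in the same library has no nuclear transcript in it. It was 0.166 and 0.158 in control, 0.280 and 0.232 with siRNA A and 0.282 and 0.253 with siRNA B against *SMARCA4*, and 0.268 and 0.265 with siRNA A and 0.352 and 0.366 with siRNA C against *SMARCA1*. All knockdown libraries were above both controls, and *SMARCA1* siRNA C was the highest group. The mean ratio was 0.162 ± 0.00623 in control (SD, n = 2), 0.262 ± 0.0238 under *SMARCA4* knockdown and 0.313 ± 0.0536 under *SMARCA1* knockdown (SD, n = 4 each), a difference of 0.69 and 0.93 in mean log2 ratio. In the 2-sided exact permutation test, 4 libraries against 2 cannot give a p below 0.133, and both comparisons gave that smallest value (p = 0.133 each, adjusted p = 0.343 over the 18 tests of shares and ratios). The mRNA share gave p = 0.267 for *SMARCA4* and p = 0.133 for *SMARCA1* knockdown in the same exact permutation test, and the rRNA share gave p = 0.133 for both.

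Gene by gene, edgeR's quasi-likelihood test could be run on 22 members: all 13 mRNAs, both rRNAs and 7 tRNAs. Under *SMARCA4* knockdown 11 of these 22 changed at an adjusted p below 0.05, against 45.1% of the 16899 genes tested. The mRNAs moved in a single direction: 8 of 13 fell and none rose, where 22.3% of all genes tested fell and 22.8% rose. Under *SMARCA1* knockdown 12 of 22 members changed, against 46.8% of all genes tested, and 9 of 13 mRNAs fell and none rose, where 23.0% of all genes tested fell and 23.8% rose. In both comparisons *MT-RNR1*, *MT-RNR2* and *MT-TL1* were the members that rose. The median log2 fold change of the 13 mRNAs was -0.46 and -0.58 under *SMARCA4* and *SMARCA1* knockdown, beside 0.00 for all genes tested in both. The 2 comparisons share their control libraries. The *SMARCA4* count rested on each control library: without control replicate 1 it was 5 members (5 mRNAs), without control replicate 2 it was 5 (4 mRNAs), and without *SMARCA4* siRNA B replicate 1 the mRNAs called were 5, while the *SMARCA1* count stayed between 9 and 12 whichever library was left out. Each siRNA alone against control called 5 members for *SMARCA4* siRNA A, with *MT-CO3* and *MT-ND3* as the only mRNAs, 9 for *SMARCA4* siRNA B, all of them mRNAs and lower, and, with *SMARCA1* as the target, 8 for siRNA A and 12 for siRNA C, against 33.2%, 45.0%, 34.8% and 45.3% of all genes tested. Of the 8 mRNAs called under *SMARCA4* knockdown, *MT-ATP8*, *MT-ATP6*, *MT-ND4L*, *MT-ND4*, *MT-CYB* and *MT-ND2* did not pass with siRNA A alone. Of the 12 members called under *SMARCA1* knockdown, 4 did not pass with siRNA A alone by edgeR's quasi-likelihood test: *MT-ND3* (log2 fold change -0.47, adjusted p = 0.0936), *MT-ND4* (-0.29, adjusted p = 0.106), *MT-ND2* (-0.02, adjusted p = 0.904) and *MT-TL1* (0.57, adjusted p = 0.117). All 12 passed with siRNA C alone.

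Under *SMARCA4* knockdown the 4 lowest fold changes were those of neighboring mRNAs in the middle of the heavy-strand transcript, *MT-ATP8*, *MT-ATP6*, *MT-CO3* and *MT-ND3*, the first 3 of which adjoin without a tRNA between them. Under *SMARCA1* knockdown *MT-CO3*, *MT-ATP8* and *MT-ATP6* were lowest, and *MT-CYB* and *MT-ND4L* came before *MT-ND3*. *MT-CO3*, a core subunit of cytochrome c oxidase (complex IV), was at 1481 and 1513 CPM in control, at 718 and 1166 with siRNA A and 379 and 579.6 with siRNA B against *SMARCA4*, and at 733 and 747 with siRNA A and 462 and 441 with siRNA C against *SMARCA1*. Every knockdown library was below both controls, and *SMARCA4* siRNA B and *SMARCA1* siRNA C were lowest. The log2 fold change was -1.16 ± 0.19 (adjusted p = 0.00088) under *SMARCA4* knockdown and -1.37 ± 0.19 (adjusted p = 0.00038) under *SMARCA1* knockdown, that is to 0.449 and 0.386 of the control level.

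*MT-ATP6*, a subunit of the proton channel of ATP synthase (complex V), was at 1203 and 1365 CPM in control, at 725 and 1170.4 with siRNA A and 400.4 and 596 with siRNA B against *SMARCA4*, and at 677 and 729.6 with siRNA A and 458 and 408 with siRNA C against *SMARCA1*. The groups did not overlap with control, although *SMARCA4* siRNA A replicate 2 lay just under the lower control library. The log2 fold change was -0.90 ± 0.19 (adjusted p = 0.00371) under *SMARCA4* knockdown and -1.22 ± 0.19 (adjusted p = 0.000729) under *SMARCA1* knockdown. *MT-ATP6* lost its call under *SMARCA4* knockdown without control replicate 2 (adjusted p = 0.0562). *MT-ATP8*, the other mitochondrial subunit of complex V, was at 161 and 188 CPM in control, at 92.8 and 146 with siRNA A and 48.9 and 76.4 with siRNA B against *SMARCA4*, and at 78.2 and 100.3 with siRNA A and 56.1 and 50.3 with siRNA C against *SMARCA1*. Again the second library of *SMARCA4* siRNA A was the highest of the knockdown libraries and all 8 were below control. Its log2 fold change was -1.01 ± 0.21 (adjusted p = 0.0029) under *SMARCA4* knockdown and -1.34 ± 0.20 (adjusted p = 0.000643) under *SMARCA1* knockdown. *MT-ND3*, a subunit of complex I, the NADH dehydrogenase, was at 247 and 192 CPM in control, at 108 and 153 with siRNA A and 52.3 and 72.2 with siRNA B against *SMARCA4*, and at 163 and 153 with siRNA A and 91.7 and 80.1 with siRNA C against *SMARCA1*. It fell below both controls in all 8 libraries, most with *SMARCA4* siRNA B. Its log2 fold change was -1.29 ± 0.17 (adjusted p = 0.000231) under *SMARCA4* knockdown and -0.91 ± 0.17 (adjusted p = 0.00181) under *SMARCA1* knockdown.

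*MT-CYB*, cytochrome b, the only mitochondrial subunit of complex III, lies last on the heavy strand and fell too. It was at 856 and 976 CPM in control, at 565 and 855 with siRNA A and 351 and 489 with siRNA B against *SMARCA4*, and at 547 and 568 with siRNA A and 336 and 309 with siRNA C against *SMARCA1*. *SMARCA4* siRNA A replicate 2 was at 855 CPM beside 856 CPM in the lower control library, and *SMARCA1* siRNA C was lowest. The log2 fold change was -0.75 ± 0.17 (adjusted p = 0.00528) under *SMARCA4* knockdown and -1.11 ± 0.17 (adjusted p = 0.000613) under *SMARCA1* knockdown. *MT-CYB* lost its call under *SMARCA4* knockdown without control replicate 2 (adjusted p = 0.0793).

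The complex I subunits *MT-ND4L*, *MT-ND4* and *MT-ND5*, which lie between *MT-ND3* and *MT-CYB*, fell too, except that *MT-ND5* did not pass the test under *SMARCA4* knockdown. *MT-ND4L* was at 304 and 216 CPM in control, at 188 and 184 with siRNA A and 133 and 154 with siRNA B against *SMARCA4*, and at 97.2 and 161 with siRNA A and 129.7 and 139.7 with siRNA C against *SMARCA1*. The control libraries lay further apart here than for *MT-CYB*, and no knockdown library reached the lower of them. Its log2 fold change was -0.67 ± 0.19 (adjusted p = 0.0152) under *SMARCA4* knockdown and -0.98 ± 0.19 (adjusted p = 0.00217) under *SMARCA1* knockdown. Without control replicate 1 or *SMARCA4* siRNA B replicate 1 (adjusted p = 0.0566 to 0.269) *MT-ND4L* lost its call under *SMARCA4* knockdown, and without control replicate 1 (adjusted p = 0.0525) it lost that under *SMARCA1* knockdown. *MT-ND4* fell by 0.36 ± 0.11 and 0.50 ± 0.11 on the log2 scale (adjusted p = 0.0243 and 0.00451), from 2192 and 2388 CPM in control to between 1338 and 2299.9 CPM, the latter, in *SMARCA4* siRNA A replicate 2, inside the control range. Without control replicate 1, control replicate 2, *SMARCA4* siRNA A replicate 1 or *SMARCA4* siRNA B replicate 1 (adjusted p = 0.089 to 0.244) *MT-ND4* lost its call under *SMARCA4* knockdown, and without control replicate 2 (adjusted p = 0.0729) it lost that under *SMARCA1* knockdown. *MT-ND5* was at 1468 and 1616 CPM in control and between 919 and 1450.1 CPM in the knockdown libraries. Its log2 fold change was -0.29 ± 0.13 (adjusted p = 0.0915) under *SMARCA4* knockdown and -0.56 ± 0.13 (adjusted p = 0.00553) under *SMARCA1* knockdown, so it passed the test only under *SMARCA1* knockdown. The difference between the knockdowns did not pass for it (adjusted p = 0.075). *MT-ND5* lost its call under *SMARCA1* knockdown without control replicate 2 (adjusted p = 0.0775).

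Of the 4 mRNAs at the start of the heavy-strand transcript, *MT-ND2* passed the test and *MT-ND1*, *MT-CO1* and *MT-CO2* did not. *MT-ND1*, a complex I subunit next to the rRNAs, was at 1269 and 1347 CPM in control, at 1472 and 1496 with siRNA A and 1069 and 1096 with siRNA B against *SMARCA4*, and at 1593 and 1433 with siRNA A and 1313 and 1233 with siRNA C against *SMARCA1*. The libraries of siRNA A against either target were above both controls and those of *SMARCA4* siRNA B below. *MT-CO2*, a complex IV subunit that lies directly before *MT-ATP8* with only *MT-TK* between them, was at 1681 and 1636 CPM in control, at 1902 and 2019 with siRNA A and 1474 and 1507 with siRNA B against *SMARCA4*, and at 2054 and 1652 with siRNA A and 1509.6 and 1463 with siRNA C against *SMARCA1*. Its knockdown libraries lay on both sides of control. The log2 fold changes under *SMARCA4* and *SMARCA1* knockdown were -0.05 ± 0.09 (adjusted p = 0.709) and 0.09 ± 0.09 (adjusted p = 0.459) for *MT-ND1*. For *MT-CO2* they were 0.04 ± 0.10 (adjusted p = 0.759) and 0.00 ± 0.10 (adjusted p = 0.995). The sign of these values changed with the siRNA and, for *MT-CO2* under *SMARCA1* knockdown, with the scaling. *MT-CO1*, the catalytic subunit of complex IV, was at 3912 and 3844 CPM in control and between 3058 and 3837 CPM in the knockdown libraries, all below both controls. Its log2 fold change was -0.16 ± 0.08 (adjusted p = 0.14) under *SMARCA4* knockdown and -0.17 ± 0.08 (adjusted p = 0.118) under *SMARCA1* knockdown. *MT-ND2* of complex I was at 933 and 1033 CPM in control, at 903 and 1076 with siRNA A and 598 and 648 with siRNA B against *SMARCA4*, and at 1008 and 928 with siRNA A and 668 and 643 with siRNA C against *SMARCA1*. With siRNA A against either target it was near control, and with *SMARCA4* siRNA B and *SMARCA1* siRNA C it was below. Its log2 fold change of -0.32 ± 0.10 (adjusted p = 0.0261) under *SMARCA4* knockdown and -0.30 ± 0.10 (adjusted p = 0.0339) under *SMARCA1* knockdown kept its call in 3 of the 10 fits that left out a library in each comparison. Without control replicate 1, control replicate 2, *SMARCA4* siRNA A replicate 1, *SMARCA4* siRNA B replicate 1, *SMARCA4* siRNA B replicate 2, *SMARCA1* siRNA C replicate 1 or *SMARCA1* siRNA C replicate 2 (adjusted p = 0.0519 to 0.288) *MT-ND2* lost its call under *SMARCA4* knockdown, and without control replicate 1, control replicate 2, *SMARCA4* siRNA B replicate 1, *SMARCA4* siRNA B replicate 2, *SMARCA1* siRNA A replicate 2, *SMARCA1* siRNA C replicate 1 or *SMARCA1* siRNA C replicate 2 (adjusted p = 0.0606 to 0.297) it lost that under *SMARCA1* knockdown.

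**Figure D2:**
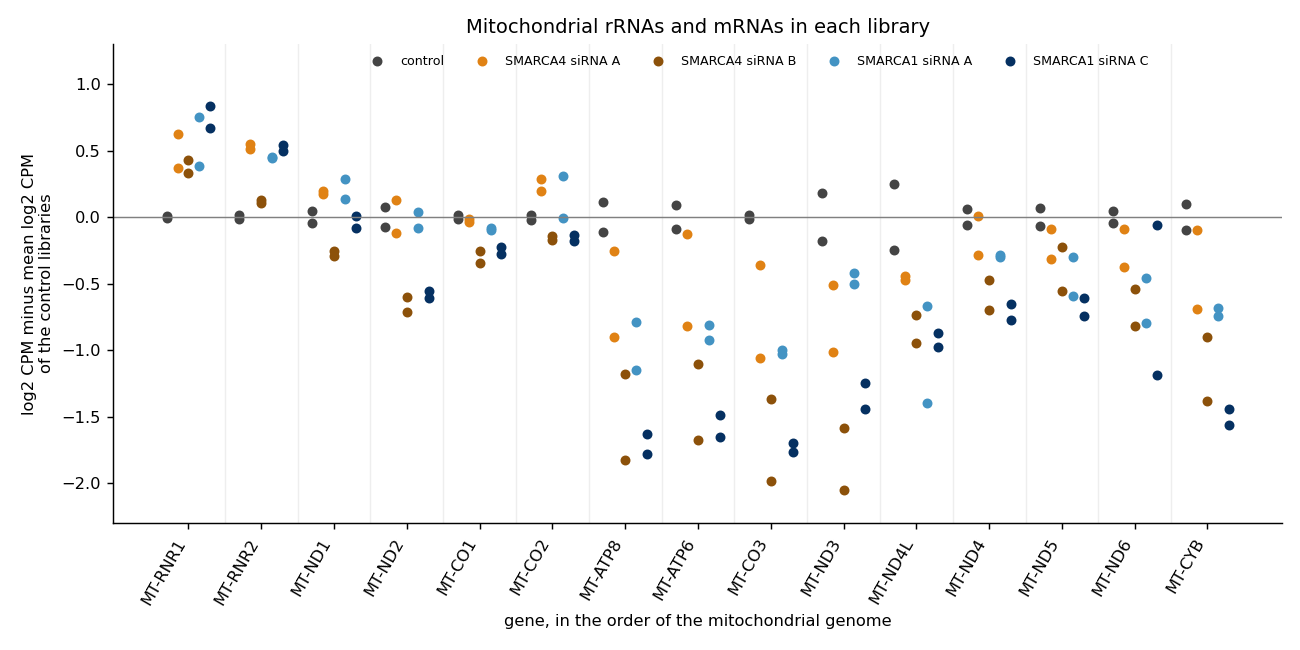
Log2 CPM of each rRNA and mRNA minus the mean log2 CPM of the 2 control libraries (y axis), in the order of the mitochondrial genome (x axis); each point is a library, colored by group. MT-RNR1 and MT-RNR2 lie above 0 in all 8 knockdown libraries, MT-ND1 to MT-CO2 lie between -0.71 and 0.31, and MT-ND3 reaches -2.05 in SMARCA4 siRNA B replicate 1.

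The mRNAs of complex IV did not move together. The counts of *MT-CO3* per count of *MT-CO1* in the same library were 0.378 and 0.394 in control, 0.187 and 0.309 with siRNA A and 0.124 and 0.178 with siRNA B against *SMARCA4*, and 0.200 and 0.206 with siRNA A and 0.139 and 0.138 with siRNA C against *SMARCA1*. Every knockdown library was below both controls. The counts of *MT-CO2* per count of *MT-CO1* were 0.430 and 0.426 in control, 0.496 and 0.535 with siRNA A and 0.482 and 0.463 with siRNA B against *SMARCA4*, and 0.561 and 0.456 with siRNA A and 0.454 and 0.458 with siRNA C against *SMARCA1*, above both controls in all 8 libraries, so *MT-CO3* and *MT-CO2* differed from *MT-CO1* in opposite directions. The counts of *MT-ATP6* per count of *MT-CO3* were 0.812 and 0.902 in control, 1.01 and 1.00 with siRNA A and 1.06 and 1.03 with siRNA B against *SMARCA4*, and 0.924 and 0.976 with siRNA A and 0.992 and 0.926 with siRNA C against *SMARCA1*. For these adjoining mRNAs the range was 0.812 to 1.06 over all libraries, and all 8 knockdown libraries were above both controls. As a share of mitochondrial mRNA counts, *MT-CO3* made up 9.26% to 9.41% in control, 3.78% to 7.38% under *SMARCA4* and 4.26% to 5.65% under *SMARCA1* knockdown. *MT-CO1* made up 23.5% to 24.9% in control, 23.9% to 30.5% under *SMARCA4* and 27.1% to 31.3% under *SMARCA1* knockdown, and *MT-ND1* made up 8.07% to 8.25%, 9.46% to 10.8% and 10.8% to 12.1% in the same order. These ratios and shares were chosen after the values were seen and are given without a test.

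*MT-ND6*, the light-strand mRNA and a complex I subunit, had the lowest CPM of the mRNAs, at 20.7 and 22.1 CPM in control, at 16.4 and 20.1 with siRNA A and 11.9 and 14.6 with siRNA B against *SMARCA4*, and at 15.4 and 12.1 with siRNA A and 20.5 and 9.14 with siRNA C against *SMARCA1*. How much of this mRNA poly(A) selection kept was not measured, so its level in the cell beside the other mRNAs is not known. All knockdown libraries were below both controls, but the libraries of *SMARCA1* siRNA C differed from each other by more than the groups did. The log2 fold change was -0.46 ± 0.26 (adjusted p = 0.172) under *SMARCA4* knockdown and -0.58 ± 0.26 (adjusted p = 0.0879) under *SMARCA1* knockdown. Per 1000 counts of the 12 heavy-strand mRNAs, *MT-ND6* had 1.32 and 1.36 in control, 1.20 and 1.27 with siRNA A and 1.19 and 1.28 with siRNA B against *SMARCA4*, and 1.14 and 0.915 with siRNA A and 1.90 and 0.894 with siRNA C against *SMARCA1*. The *SMARCA4* libraries lay below both controls and the *SMARCA1* libraries on both sides (p = 0.133 and p = 0.533, 2-sided exact permutation test, the smallest p possible being 0.133). The strand setting of the counting is not given in the sources used here, so RNA of the opposite strand may be included in this count.

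Both rRNAs rose under both knockdowns. *MT-RNR2*, the 16S rRNA of the large mitochondrial ribosomal subunit, was at 2403 and 2359 CPM in control, at 3485 and 3386 with siRNA A and 2556 and 2609 with siRNA B against *SMARCA4*, and at 3263 and 3232 with siRNA A and 3472 and 3364 with siRNA C against *SMARCA1*. *SMARCA4* siRNA B was closest to control, and all 8 libraries were above it. The log2 fold change was 0.32 ± 0.08 (adjusted p = 0.0102) under *SMARCA4* knockdown and 0.48 ± 0.08 (adjusted p = 0.00126) under *SMARCA1* knockdown. *MT-RNR2* lost its call under *SMARCA4* knockdown without control replicate 1 or control replicate 2 (adjusted p = 0.0547 to 0.0706). *MT-RNR1*, the 12S rRNA of the small subunit, was at 214 and 216 CPM in control, at 331 and 278 with siRNA A and 269.7 and 289 with siRNA B against *SMARCA4*, and at 361 and 280.1 with siRNA A and 342 and 383 with siRNA C against *SMARCA1*. All 8 libraries were again above control. Its log2 fold change was 0.44 ± 0.13 (adjusted p = 0.0161) under *SMARCA4* knockdown and 0.67 ± 0.13 (adjusted p = 0.00208) under *SMARCA1* knockdown. *MT-RNR1* lost its call under *SMARCA4* knockdown without control replicate 1 or control replicate 2 (adjusted p = 0.0793 to 0.0862). For *SMARCA4* siRNA B alone neither rRNA passed the test (log2 fold change 0.38 and 0.12, adjusted p = 0.0521 and 0.341, for *MT-RNR1* and *MT-RNR2*). Poly(A) selection keeps only part of the rRNA, so the level of these RNAs in the cell was not measured. A list of 10 RNAs without poly(A) tails, mostly *RN7SL1*, summed to 59.8 to 104 unscaled CPM in control, 77.6 to 91.7 under *SMARCA4* and 84.9 to 119.8 under *SMARCA1* knockdown, and 0 and 2 of its 5 members tested were called higher, where 22.8% and 23.8% of all genes tested were. Its part in the rRNA result was not tested.

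**Figure D3:**
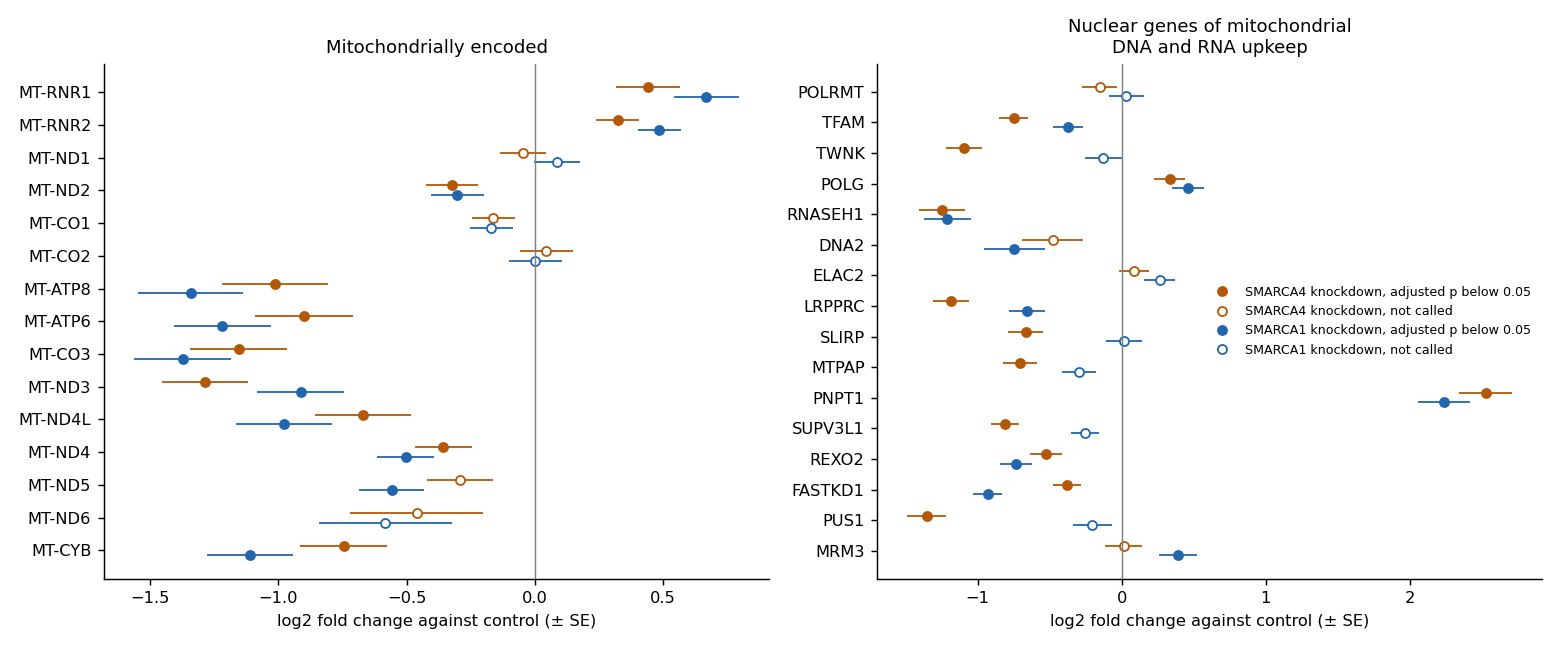
Log2 fold change against control with its standard error (x axis) for the 2 rRNAs and 13 mRNAs of the mitochondrial genome in genome order (left) and for 16 nuclear genes of mitochondrial DNA and RNA upkeep (right), under SMARCA4 (orange) and SMARCA1 (blue) knockdown; filled points passed an adjusted p below 0.05. The lowest mitochondrial value is -1.37 for MT-CO3 under SMARCA1 knockdown, and PNPT1 at 2.53 and 2.24 is the largest rise.

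The tRNAs were barely sampled, as they carry no poly(A) tail. All 22 together had 154 to 379 counts per library, 0.0579% of all mitochondrial counts. *MT-TG*, *MT-TS2* and *MT-TL2* had 0 counts in every library, which allows at most 3 counts in each, or 0.0865 to 0.126 unscaled CPM, and 4 others had fewer than 10 counts in all 10 libraries together. *MT-TL1*, the leucine tRNA that follows *MT-RNR2*, made up 61.5% of tRNA counts. *MT-TL1* adjoins *MT-RNR2* without a gap and lies 2 bases before *MT-ND1*, so its counts may include RNA not yet cut. Whether they came from the free tRNA was not tested. Its gene is shown because it is the only tRNA that passed the test against control.
MT-TL1, chrM:3230-3304: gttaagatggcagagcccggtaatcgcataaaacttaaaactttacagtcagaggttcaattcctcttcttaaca
*MT-TL1* was at 2.93 and 4.53 CPM in control, at 9.18 and 5.78 with siRNA A and 5.41 and 5.82 with siRNA B against *SMARCA4*, and at 5.13 and 6.01 with siRNA A and 6.05 and 6.50 with siRNA C against *SMARCA1*. All knockdown libraries were above both controls, and *SMARCA4* siRNA A replicate 1 stood highest. The log2 fold change was 0.79 ± 0.23 (adjusted p = 0.0183) under *SMARCA4* knockdown and 0.66 ± 0.23 (adjusted p = 0.039) under *SMARCA1* knockdown, from 70 and 122 counts in control. Without control replicate 1 (adjusted p = 0.162) *MT-TL1* lost its call under *SMARCA4* knockdown, and without control replicate 1, *SMARCA1* siRNA A replicate 2, *SMARCA1* siRNA C replicate 1 or *SMARCA1* siRNA C replicate 2 (adjusted p = 0.0511 to 0.285) it lost that under *SMARCA1* knockdown. *MT-TI*, *MT-TM*, *MT-TW*, *MT-TS1*, *MT-TT* and *MT-TP*, with 68 to 206 counts each over all libraries, did not pass against control under either knockdown.

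As a share of all counts, tRNAs held 0.000644% and 0.000840% in control, 0.000820% to 0.00130% under *SMARCA4* and 0.000912% to 0.000958% under *SMARCA1* knockdown, with counting intervals of up to 16.1% of the value (p = 0.267 and p = 0.133, 2-sided exact permutation test). The counts of the 8 light-strand tRNAs per count of the 14 heavy-strand tRNAs were 0.316 and 0.149 in control, 0.121 and 0.132 with siRNA A and 0.108 and 0.177 with siRNA B against *SMARCA4*, and 0.223 and 0.146 with siRNA A and 0.187 and 0.113 with siRNA C against *SMARCA1*. The control libraries were far apart, and the knockdown libraries lay on both sides of the lower one (p = 0.267 and p = 0.4, same exact permutation test, in which 4 libraries against 2 cannot give a p below 0.133).

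Compared per length, the heavy-strand mRNAs of control cells spanned a range from *MT-CO1* to *MT-ND3*. In CPM per kilobase of gene (mean ± SD, n = 2), *MT-CO1* was at 2515 ± 31.3, *MT-CO2* at 2425 ± 46.1, *MT-CO3* at 1909 ± 29.2, *MT-ATP6* at 1885 ± 168 and *MT-ND4* at 1662 ± 101. The libraries of *MT-CO3* and *MT-ATP6* overlapped, and those of the other neighbors in this order did not. Lower in the order were *MT-ND1* at 1368 ± 58.2, *MT-ND2* at 943 ± 68.4, *MT-ND4L* at 875 ± 210.3, *MT-ND5* at 851 ± 57.6, *MT-ATP8* at 843 ± 94.6 and *MT-CYB* at 802 ± 74.4, of which the last 5 each overlapped the next. *MT-ND3* was at 635 ± 112 and *MT-ND6* at 40.8 ± 1.89, the latter a value that poly(A) selection may set in part. *MT-ATP8* and *MT-ND4L* are short, at 207 and 297 bases, and overlap *MT-ATP6* and *MT-ND4*. Since the overlap setting of the counting is not given, reads there may be missing, and the values of short genes may be too low. *MT-RNR2* was at 1527 ± 20.1 and *MT-RNR1* at 225 ± 1.47, values that poly(A) selection sets in part. Under knockdown the order changed: *MT-CO3* went to 907 ± 426 and 759.7 ± 213 under *SMARCA4* and *SMARCA1* knockdown (n = 4 each), below *MT-ND1* at 1342 ± 243 and 1457 ± 164, which it exceeded in control. *MT-RNR2* reached 1930.1 ± 317 and 2138 ± 69.7, beside *MT-CO1* at 2257 ± 250.3 and 2238 ± 146.

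**Figure D4:**
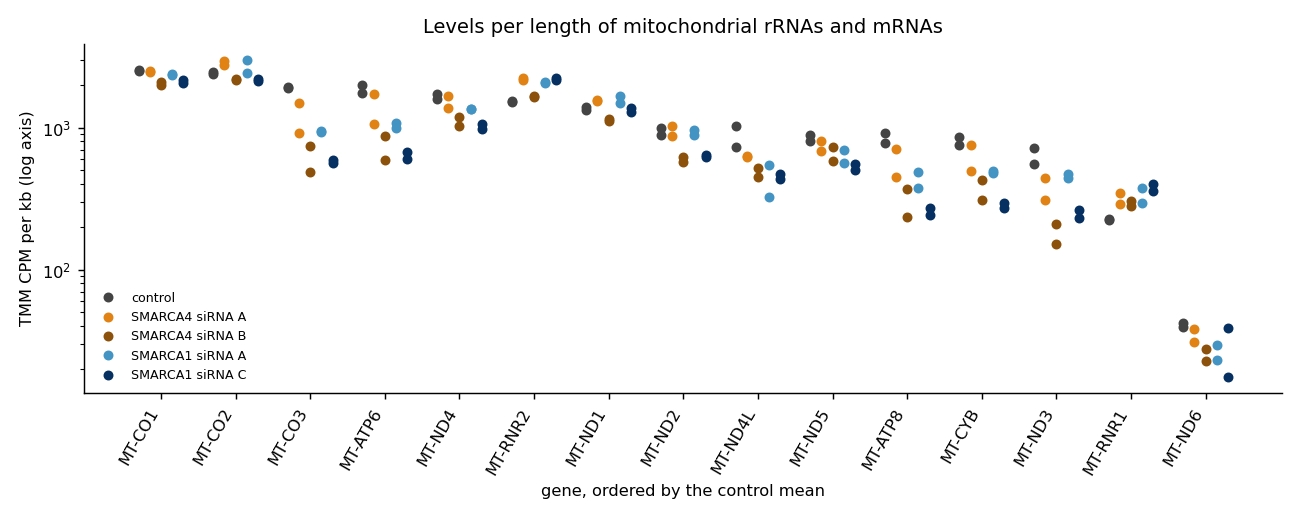
TMM-scaled CPM per kilobase (log axis) of the 13 mRNAs and 2 rRNAs in each library, ordered by the control mean; each point is a library, colored by group. MT-CO1 leads at a control mean of 2515 and MT-ND6 is lowest at 40.8, and MT-CO3, at 1909 in control, is at 907 and 759.7 on average under SMARCA4 and SMARCA1 knockdown.

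Between the knockdowns, where both arms were transfected, 1 of 22 members passed, against 35.4% of all genes tested, and 6 had an unadjusted p below 0.05. The member was *MT-TM*, a methionine tRNA with 173 counts in all libraries. It was at 0.838 and 0.975 CPM with *SMARCA4* siRNA A, 0.556 and 0.772 with *SMARCA4* siRNA B, 0.325 and 0.447 with *SMARCA1* siRNA A, and 0.352 and 0.480 with *SMARCA1* siRNA C. The *SMARCA4* libraries were all above the *SMARCA1* libraries, by 0.95 ± 0.28 (adjusted p = 0.0248) on the log2 scale. The call was lost in DESeq2 (adjusted p = 0.07) and in 4 of 10 fits that left out a library, without *SMARCA4* siRNA A replicate 2, *SMARCA4* siRNA B replicate 2, *SMARCA1* siRNA A replicate 1 or *SMARCA1* siRNA C replicate 1 (adjusted p 0.0702 to 0.0951). No mRNA and neither rRNA passed, and 3 of the mRNAs had an unadjusted p below 0.05. The fitted differences of the mRNAs, with 2 SE on each side, ran from -0.66 to -0.09 for *MT-ND3*, the lowest, to between 0.08 and 0.65 for *MT-CYB*, the highest. The interval was -0.10 to 0.54 for *MT-CO3* and -0.30 to -0.03 for *MT-RNR2*. The count of members called was 5 without *SMARCA4* siRNA A replicate 1 or *SMARCA4* siRNA B replicate 1, 4 without *SMARCA1* siRNA A replicate 2, and 0 without *SMARCA1* siRNA A replicate 1 or *SMARCA1* siRNA C replicate 1. Of the 6 shares and ratios the smallest p between the knockdowns was 0.2 for the ratio of rRNA to mRNA counts (2-sided exact permutation test, 4 against 4, smallest possible 0.0286).

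For each target, most mitochondrial mRNA values were lower with the second siRNA than with siRNA A. *SMARCA4* siRNA A left 6 members higher than siRNA B, against 6.20% of all genes tested (3.04% higher and 3.17% lower), and none lower. The log2 differences by edgeR's quasi-likelihood test were 1.07 ± 0.20 (adjusted p = 0.0201) for *MT-ND3*, 0.97 ± 0.23 (adjusted p = 0.0358) for *MT-CO3* and 0.93 ± 0.23 (adjusted p = 0.0429) for *MT-ATP6*. They were 0.67 ± 0.12 (adjusted p = 0.0168) for *MT-ND2*, 0.45 ± 0.10 (adjusted p = 0.0326) for *MT-ND1* and 0.41 ± 0.10 (adjusted p = 0.034) for *MT-RNR2*. All 13 mRNAs had a positive difference. The calls depended on single libraries: there were none without *SMARCA4* siRNA A replicate 2, siRNA B replicate 1 or siRNA B replicate 2, 2 without either control library or either *SMARCA1* siRNA C library, and 10 without either *SMARCA1* siRNA A library or in DESeq2. *SMARCA1* siRNA A and siRNA C differed in 0 members, against 0.0118% of all genes tested, by edgeR's quasi-likelihood test. In that comparison 9 mRNAs had an unadjusted p below 0.05, all of them higher with siRNA A, and DESeq2 called 3: *MT-ND2*, *MT-ND3* and *MT-CYB*, with edgeR log2 differences of 0.56 ± 0.12 (adjusted p = 0.139), 0.88 ± 0.20 (adjusted p = 0.141) and 0.79 ± 0.20 (adjusted p = 0.142). The edgeR count was 3 without *SMARCA4* siRNA A replicate 1, *SMARCA4* siRNA A replicate 2 or *SMARCA1* siRNA A replicate 2.

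Features of the 13 mRNAs other than their place were set beside their fold changes as a description, over genes that are not independent replicates. The Pearson r of log2 fold change with gene length was 0.54 under *SMARCA4* and 0.43 under *SMARCA1* knockdown, and with GC content 0.54 and 0.43 (n = 13 mRNAs that come from the same libraries). The median log2 fold change of the 7 mRNAs with a complete stop codon by their annotated ends, *MT-ATP6* among them, was -0.46 and -0.58. That of the 6 with an incomplete stop codon was -0.55 and -0.71. *MT-ND1* and *MT-CO3*, both with an incomplete stop, were near the opposite ends of the range.

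Copies of mitochondrial DNA in nuclear chromosomes can take reads from the mitochondrial genes. A block on chromosome 1 (hg38, chr1:629062-634922) holds pseudogenes of 7 neighboring genes, and there *MT-ND2*, *MT-CO1*, *MT-CO2*, *MT-ATP8* and *MT-ATP6* are 97.6% to 98.6% identical over their whole length. Of 415 annotated copies 42 had counts, and together these equaled 0.738% of the mitochondrial counts. The largest was *MTATP6P1*, whose counts were 11.0% to 13.5% of those of *MT-ATP6* in control, 10.1% to 11.5% under *SMARCA4* and 10.1% to 12.1% under *SMARCA1* knockdown. The level of *MTATP6P1* in unscaled CPM was 152 to 162, 40.1 to 137 and 46.6 to 75.2 in the same order, lower in every knockdown library as its parent was. *MTND2P28* had at most 3.67% and *MTCO1P12* at most 0.192% of the parent's counts. Adding all copies to their parents left the number of mRNAs called at 8 and 9. This cannot show that the copies have no part, since reads that match both places equally may be missing from both counts. *MT-ND3*, *MT-ND4L*, *MT-ND4*, *MT-ND5* and *MT-CYB* have no copy in that block.

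Nuclear genes keep this genome transcribed, and 19 genes of mitochondrial DNA transcription and replication were tested. Of these, 10 fell and 1 rose under *SMARCA4* knockdown, and 6 fell and 1 rose under *SMARCA1* knockdown, with medians of -0.48 and -0.11 on the log2 scale. Of all genes tested, 22.3% fell and 22.8% rose under *SMARCA4* and 23.0% fell and 23.8% rose under *SMARCA1* knockdown, so the 6 that fell under *SMARCA1* knockdown were a share near that of all genes. *POLRMT*, the mitochondrial RNA polymerase, was at 53.4 and 61.5 CPM in control and between 48.6 and 67.5 CPM in the knockdown libraries, with log2 fold changes of -0.15 ± 0.12 (adjusted p = 0.329) under *SMARCA4* knockdown and 0.03 ± 0.12 (adjusted p = 0.843) under *SMARCA1* knockdown. *TFAM*, which packages mitochondrial DNA and starts its transcription, fell by 0.75 ± 0.10 and 0.37 ± 0.10 on the log2 scale (adjusted p = 0.000309 and 0.0146). *TFAM* lost its call under *SMARCA1* knockdown without control replicate 1 (adjusted p = 0.174). *RNASEH1*, an RNase that acts on RNA paired with DNA, was at 29.6 CPM in control and fell by 1.25 ± 0.16 and 1.21 ± 0.16 (adjusted p = 0.000221 and 0.00032). *TWNK*, the replicative helicase, was at -1.09 ± 0.12 (adjusted p = 0.000107) under *SMARCA4* knockdown and -0.13 ± 0.13 (adjusted p = 0.439) under *SMARCA1* knockdown, and the nuclease and helicase *DNA2* at -0.48 ± 0.21 (adjusted p = 0.0908) under *SMARCA4* knockdown and -0.75 ± 0.21 (adjusted p = 0.0155) under *SMARCA1* knockdown. *DNA2* lost its call under *SMARCA1* knockdown without control replicate 1 (adjusted p = 0.152). *POLG*, the DNA polymerase of mitochondria, was the gene that rose, with 0.33 ± 0.11 (adjusted p = 0.0305) under *SMARCA4* knockdown and 0.46 ± 0.11 (adjusted p = 0.00672) under *SMARCA1* knockdown. Without control replicate 1, control replicate 2, *SMARCA4* siRNA A replicate 1, *SMARCA4* siRNA B replicate 1 or *SMARCA1* siRNA C replicate 2 (adjusted p = 0.052 to 0.143) *POLG* lost its call under *SMARCA4* knockdown, and without control replicate 1 (adjusted p = 0.0602) it lost that under *SMARCA1* knockdown.

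Of 31 genes of mitochondrial RNA processing and decay, 20 fell and 1 rose under *SMARCA4* knockdown, and 11 fell and 2 rose under *SMARCA1* knockdown, with medians of -0.45 and -0.21, beside the same 22.3% and 23.0% of all genes that fell and 22.8% and 23.8% that rose. *PNPT1*, polynucleotide phosphorylase, which degrades mitochondrial RNA and is also known as an interferon-induced gene, was at 60.3 and 56.6 CPM in control, at 400.1 and 262 with siRNA A and 326 and 359 with siRNA B against *SMARCA4*, and at 182 and 234 with siRNA A and 366 and 364 with siRNA C against *SMARCA1*. Every knockdown library was far above control, with log2 fold changes of 2.53 ± 0.19 (adjusted p = 1.04e-05) under *SMARCA4* knockdown and 2.24 ± 0.18 (adjusted p = 2.83e-05) under *SMARCA1* knockdown. Its helicase partner *SUPV3L1* was at -0.81 ± 0.10 (adjusted p = 0.000153) under *SMARCA4* knockdown and -0.25 ± 0.10 (adjusted p = 0.0584) under *SMARCA1* knockdown. *LRPPRC*, which stabilizes mitochondrial mRNAs and promotes their polyadenylation, was at 506 and 476 CPM in control, at 266 and 279 with siRNA A and 169.8 and 172 with siRNA B against *SMARCA4*, and at 262 and 373 with siRNA A and 301 and 311 with siRNA C against *SMARCA1*, lower than control in all 8 libraries, with log2 fold changes of -1.19 ± 0.12 (adjusted p = 6.88e-05) under *SMARCA4* knockdown and -0.66 ± 0.13 (adjusted p = 0.00225) under *SMARCA1* knockdown. Its partner *SLIRP* was at -0.67 ± 0.12 (adjusted p = 0.00183) under *SMARCA4* knockdown and 0.01 ± 0.13 (adjusted p = 0.934) under *SMARCA1* knockdown, and the mitochondrial poly(A) polymerase *MTPAP* at -0.70 ± 0.12 (adjusted p = 0.00105) under *SMARCA4* knockdown and -0.30 ± 0.12 (adjusted p = 0.0664) under *SMARCA1* knockdown. 

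*ELAC2*, which cuts tRNA 3′ ends from the precursor, was at 0.09 ± 0.11 (adjusted p = 0.535) under *SMARCA4* knockdown and 0.26 ± 0.11 (adjusted p = 0.0643) under *SMARCA1* knockdown. *REXO2*, which clears short RNA, was at -0.52 ± 0.11 (adjusted p = 0.0039) under *SMARCA4* knockdown and -0.73 ± 0.11 (adjusted p = 0.000635) under *SMARCA1* knockdown. *REXO2* lost its call under *SMARCA4* knockdown without control replicate 1 (adjusted p = 0.0594). *PUS1*, a pseudouridine synthase, had the largest fall of the list under *SMARCA4* knockdown with -1.35 ± 0.14 (adjusted p = 5.1e-05) and was at -0.20 ± 0.14 (adjusted p = 0.248) under *SMARCA1* knockdown, while *FASTKD1*, an RNA-binding protein of mitochondria, had the largest under *SMARCA1* knockdown with -0.93 ± 0.10 (adjusted p = 0.0001) and was at -0.38 ± 0.10 (adjusted p = 0.0107) under *SMARCA4* knockdown. *FASTKD1* lost its call under *SMARCA4* knockdown without control replicate 1 or *SMARCA4* siRNA B replicate 1 (adjusted p = 0.0625 to 0.175). *MRM3*, a methyltransferase of 16S rRNA, rose under *SMARCA1* knockdown with 0.39 ± 0.13 (adjusted p = 0.0334) and was at 0.01 ± 0.13 (adjusted p = 0.942) under *SMARCA4* knockdown. *MRM3* lost its call under *SMARCA1* knockdown without control replicate 1, control replicate 2, *SMARCA1* siRNA C replicate 1 or *SMARCA1* siRNA C replicate 2 (adjusted p = 0.062 to 0.199). Between the knockdowns themselves, *PUS1*, *TWNK*, *SLIRP*, *SUPV3L1*, *MTPAP* and *MRM3* were lower under *SMARCA4* than under *SMARCA1* knockdown, with log2 differences from -1.15 for *PUS1* to -0.38 for *MRM3* (adjusted p = 0.000141 to 0.0201). Not all named genes had this direction. The fold changes against control of *FASTKD1*, *REXO2*, *DNA2* and *PNPT1* were lower under *SMARCA1* knockdown, with -0.93 beside -0.38 for *FASTKD1*. Of 7 nuclear factors of mitochondrial biogenesis, 3 fell and 0 rose under *SMARCA4* knockdown, and 4 fell and 1 rose under *SMARCA1* knockdown, where 22.3% and 23.0% of all genes tested fell. The riser was *PPARGC1A*, a coactivator of biogenesis that was scarce, at 0.585 CPM in control, 0.573 under *SMARCA4* and 1.16 under *SMARCA1* knockdown (log2 fold change -0.06 ± 0.36 (adjusted p = 0.906) under *SMARCA4* knockdown and 0.95 ± 0.34 (adjusted p = 0.0427) under *SMARCA1* knockdown). *PPARGC1A* lost its call under *SMARCA1* knockdown without control replicate 1, control replicate 2, *SMARCA1* siRNA A replicate 1, *SMARCA1* siRNA C replicate 1 or *SMARCA1* siRNA C replicate 2 (adjusted p = 0.0539 to 0.221).

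The nuclear partners of the mitochondrial subunits were counted from the same test. Under *SMARCA4* knockdown the nuclear subunits that fell were 19 of 36 tested in complex I, 3 of 4 in complex II, which has no mitochondrial subunit, 6 of 9 in complex III, 9 of 11 in complex IV and 16 of 17 in complex V, and none of them rose, where 22.3% of all genes tested fell and 22.8% rose. Beside these, the mitochondrial subunits that fell were 4 of 7 in complex I, *MT-CYB* in complex III, 1 of 3 in complex IV and both in complex V. Under *SMARCA1* knockdown the nuclear subunits that fell were 6 of 36, 1 of 4, 3 of 9, 2 of 11 and 10 of 17 in the same order, with 1 riser each in complexes I, II and IV. With 23.0% of all genes tested falling and 23.8% rising, the shares that fell in complexes I, II and IV were near or below that of all genes. The mitochondrial subunits that fell under *SMARCA1* knockdown were 5 of 7, *MT-CYB*, 1 of 3 and both. The nuclear subunits of complex V had medians of -0.67 and -0.30 on the log2 scale, and *MT-ATP6* and *MT-ATP8* lay below both.

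Interferon-response genes were far above control in every knockdown library, and their share is set beside *MT-ATP8*, *MT-ATP6*, *MT-CO3* and *MT-ND3* here. The 30 interferon-response genes listed all rose under both knockdowns, where 22.8% and 23.8% of all genes tested rose under *SMARCA4* and *SMARCA1* knockdown. Together they held 0.0365% and 0.0379% of all counts in control. In the knockdown libraries, their share was lowest with *SMARCA4* siRNA A replicate 2, at 1.74%, where the mean log2 difference from control of *MT-ATP8*, *MT-ATP6*, *MT-CO3* and *MT-ND3* was -0.31. It was 2.49% and 2.76% with *SMARCA1* siRNA A, where the 4 mRNAs averaged -0.78 and -0.88, and 3.43% with *SMARCA4* siRNA A replicate 1, where they averaged -0.95. The remaining libraries had the highest shares and the lowest averages: 3.99% and 4.57% with *SMARCA4* siRNA B, with -1.31 and -1.88, and 4.56% and 4.60% with *SMARCA1* siRNA C, with -1.51 and -1.66. The order of libraries was thus nearly the same for both measures, across both targets. The rRNA share did not have this order. It was 0.374% with *SMARCA4* siRNA A replicate 2, and 0.281% and 0.298% with *SMARCA4* siRNA B. The 4 mRNAs were chosen for this after their values were seen, no correlation was tested, and the part of the interferon response in the mitochondrial differences was not tested.

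**Figure D5:**
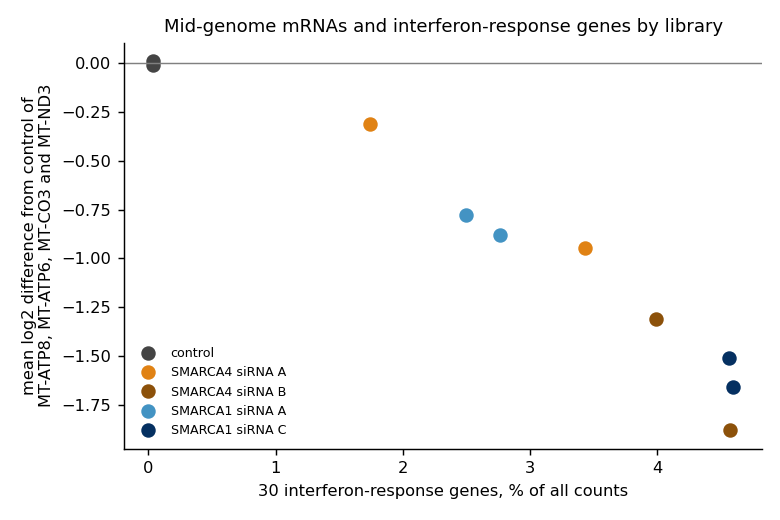
Share of all counts in 30 interferon-response genes (x axis) and the mean log2 difference from control of MT-ATP8, MT-ATP6, MT-CO3 and MT-ND3 (y axis); each point is a library, colored by group. The controls sit at 0.0365% and 0.0379%, and the knockdown libraries run from 1.74% and -0.31 (SMARCA4 siRNA A replicate 2) to 4.57% and -1.88 (SMARCA4 siRNA B replicate 1).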

How the data were processed

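RNA of 10 VCaP libraries was poly(A)-selected, prepared with a directional kit and sequenced with paired ends. The authors deposited raw read counts per gene for each library, made with HISAT2 2.1.0 and featureCounts 1.5.2 (versions from the submitters' processing notes) on hg38 with a GENCODE annotation. The strand and overlap settings of the counting are not given in the sources used here. Of 806 genes whose exons lie opposite another gene's, 216 had at least 10 counts.

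From these counts, log2 fold changes, SE and p-values were fitted with edgeR 4.0.16 (R 4.3.3), with filterByExpr (minimum count 10, minimum total 15), TMM scaling and the quasi-likelihood test over all 10 libraries in 5 groups. Benjamini-Hochberg adjustment ran over the 16899 genes tested, and a gene was called at an adjusted p below 0.05. Knockdown values are the mean of both siRNAs. Shares and ratios per library were compared by 2-sided exact permutation tests. The intervals of shares (95%, Clopper-Pearson) and the limit of 3 counts for a count of 0 cover counting error only. Alternatives were DESeq2 1.42.0, other scalings and filters, a replicate block, addition of nuclear copies and omission of each library. On data simulated from these libraries with 200 genes changed by 1.5 on the log2 scale, the fit recovered 92.8% of them (16439 genes run, *SMARCA4* knockdown against control).

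The members and the lists of nuclear genes were chosen with earlier results of these data known. All members were accounted for. Named nuclear genes were the 4 largest rises and falls per knockdown among called genes of the lists on mitochondrial DNA and RNA, plus *POLRMT*, *TFAM*, *LRPPRC*, *SLIRP*, *MTPAP*, *PNPT1*, *SUPV3L1*, *ELAC2*, *REXO2* and *PPARGC1A*. Of the lists, 2 nuclear-retained RNAs (*MALAT1* and *NEAT1*) had 0 and 1 called lower under *SMARCA4* and *SMARCA1* knockdown, where 22.3% and 23.0% of all genes tested fell. Their sum was 1314 and 1359 unscaled CPM in control and 959 to 2140 in the knockdown libraries. It differed most between the libraries of *SMARCA1* siRNA A, with 2140 in replicate 1 and 981 in replicate 2. The part of this difference in the results was not tested. Sequences were read from the hg38 chromosome M of the reference. Replicates of a group differed by more than counting noise in every pair, and no 2 libraries were taken as copies of each other. The size of this difference varied. Its chi-square per gene was 6.39 in control, 42.9 and 22.6 with *SMARCA4* siRNA A and siRNA B, and 60.6 and 3.80 with *SMARCA1* siRNA A and siRNA C. The edgeR fit shared its estimate of the spread over all these groups.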

Additional observations from a re-analysis of the deposited data

Results flagged for a closer look

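Single libraries stood apart for 2 tRNAs. *MT-TL1* was at 9.18 CPM in *SMARCA4* siRNA A replicate 1, far above the other *SMARCA4* knockdown libraries by Dixon's test, and *MT-TT* was at 1.08 CPM in *SMARCA1* siRNA A replicate 1, far above the other *SMARCA1* knockdown libraries. Of 56 sets of 4 libraries checked, these 2 passed, where chance alone passes about 5% of them.

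The difference between the knockdowns passed the test for *MT-TM*, which was higher under *SMARCA4* than under *SMARCA1* knockdown by 0.95 on the log2 scale. Between *SMARCA4* siRNA A and siRNA B, which share a target, 6 members differed, all higher with siRNA A: *MT-RNR2* by 0.41, *MT-ND1* by 0.45, *MT-ND2* by 0.67, *MT-ATP6* by 0.93, *MT-CO3* by 0.97 and *MT-ND3* by 1.07 on the log2 scale. The library of siRNA A whose interferon-response share was lower was replicate 2, at 1.74%. It was also the one closest to control for *MT-ATP6*, *MT-CO3*, *MT-ND3* and *MT-ATP8*, the last of which is not among the 6 members. For the rest of the 6, the log2 difference from control in replicates 1 and 2 was 0.17 and 0.19 for *MT-ND1*. It was -0.12 and 0.13 for *MT-ND2*, and 0.55 and 0.51 for *MT-RNR2*. The cause was not tested.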

How the results depend on the processing

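The members called stayed within 1.5 times the reported count against control for *SMARCA4* knockdown in all settings but the omission of single libraries (5 to 11 members, 4 to 8 mRNAs) and *SMARCA4* siRNA A alone (5 members, 2 mRNAs), and for *SMARCA1* knockdown in all settings (libraries left out: 9 to 12 members, 6 to 9 mRNAs). Between *SMARCA4* and *SMARCA1* knockdown the count was 8 with no filter on low counts, 0 with at least 1 CPM in 2 libraries and 0 to 5 with a library left out. *SMARCA4* siRNA A against siRNA B gave 10 in DESeq2, 10 with no filter and 0 to 10 with a library left out, and *SMARCA1* siRNA A against siRNA C gave 3, 7 and 0 to 3. Replicate numbers were not taken to pair the libraries, since same-numbered libraries correlated in their deviations from the group means by -0.10 to 0.36 over 10 pairs of groups, and only 3 were over 0.1. These 3 were the pairs among *SMARCA4* siRNA A, *SMARCA4* siRNA B and *SMARCA1* siRNA A (0.36, 0.27 and 0.13), so an effect of replicate shared by those groups is possible. With the replicate block, the count between *SMARCA4* and *SMARCA1* knockdown was 3 in place of 1, the counts against control were 11 and 13, and *MT-CO2* under *SMARCA1* knockdown was at -0.00035. The cause of these changes was not tested.

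Signs changed for 1 called value and for values near 0 that were not called. The called value was that of *MT-ND2*, lower under *SMARCA4* knockdown, which was at 0.0093 with siRNA A alone. *MT-ND1* was at 0.18 with *SMARCA4* siRNA A alone and -0.039 with *SMARCA1* siRNA C alone, and *MT-CO2* was at -0.15 with *SMARCA4* siRNA B alone and, under *SMARCA1* knockdown, at -0.16 with siRNA C alone, -0.024 without TMM and -0.024 with upper-quartile scaling. *SLIRP* under *SMARCA1* knockdown was at -0.076 with siRNA C alone and at -0.011 without TMM and -0.0100 with upper-quartile scaling, *MRM3* under *SMARCA4* knockdown at -0.025 with upper-quartile scaling, and *PPARGC1A* at 0.24 with *SMARCA4* siRNA A alone. The tRNA strand ratio under *SMARCA1* knockdown was 0.076 on the log2 scale when the tRNA with the most counts on each strand was set aside.

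With a library left out, the range on the log2 scale was -0.050 to 0.028 for *MT-ND1* under *SMARCA4* and -0.082 to 0.10 for *MT-CO2* under *SMARCA1* knockdown, -0.034 to 0.13 for *MRM3* and -0.36 to 0.19 for *PPARGC1A* under *SMARCA4*, and -0.073 to 0.16 for *POLRMT* and -0.094 to 0.14 for *SLIRP* under *SMARCA1* knockdown. It was -0.013 to 0.22 for the mRNA share and -0.027 to 0.33 for the *MT-ND6* ratio between the knockdowns, and -0.97 to 0.11 for the tRNA strand ratio under *SMARCA1* knockdown. *SMARCA4* siRNA A alone lost the calls of *MT-ATP8*, *MT-ATP6*, *MT-ND4L*, *MT-ND4*, *MT-CYB* and *MT-ND2*, *SMARCA4* siRNA B alone those of *MT-RNR1*, *MT-RNR2* and *MT-TL1*, and *SMARCA1* siRNA A alone those of *MT-ND3*, *MT-ND4*, *MT-ND2* and *MT-TL1*.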
